A study of Mus musculus with 8 samples.

Results

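The effect of GW4064, a synthetic compound that activates the bile acid receptor FXR (gene Nr1h4), on gene expression in mouse primary hepatocytes was read as a main effect, that is, averaged over cells with and without glucagon. All 8 arrays of the series entered: 4 with GW4064 against 4 without it. The 4 arrays with GW4064 were 2 of 2 µM GW4064 alone and 2 of 100 nM glucagon with 2 µM GW4064. The 4 without it were 2 of DMSO, the solvent, and 2 of 100 nM glucagon alone. Every treatment lasted 6 h. All cells came from male C57Bl6J mice, whose age the labels do not give, and were kept in medium with 100 nM dexamethasone, a synthetic glucocorticoid, so both sides of every comparison carry it. The study comprised 2 experiments, each on 1 pool of cells from 3 mice, and technical replicates were pooled into 1 array per treatment and experiment. The arrays therefore form 4 matched pairs, each within 1 experiment and 1 glucagon state, and n = 4 pairs where no other number is given. Pairs of the same experiment share a pool of cells, so the pairs stand for only 2 independent pools.

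FXR, the farnesoid X receptor, is the nuclear receptor for bile acids. Bound by a ligand, and usually paired with the retinoid X receptor, it attaches to inverted repeats of a nuclear receptor half-site and in the liver raises genes that export bile acids and phospholipid, while the small heterodimer partner (SHP, gene Nr0b2), which it induces, represses bile acid synthesis. Glucagon, the fasting hormone, raises cyclic AMP in the same cells and switches on gluconeogenesis, and the study asked how the receptor acts in that setting.

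The promoter of Abcb11, the bile salt export pump and a textbook FXR target, is shown because it carries the receptor's recognition element in the window searched. It is the RefSeq window of build GRCm38.p6, chr2:69342567-69342866, minus strand, 250 bases before to 50 bases after the gene's start, with the best match to the inverted repeat AGGTCANTGACCT in capitals.
Abcb11: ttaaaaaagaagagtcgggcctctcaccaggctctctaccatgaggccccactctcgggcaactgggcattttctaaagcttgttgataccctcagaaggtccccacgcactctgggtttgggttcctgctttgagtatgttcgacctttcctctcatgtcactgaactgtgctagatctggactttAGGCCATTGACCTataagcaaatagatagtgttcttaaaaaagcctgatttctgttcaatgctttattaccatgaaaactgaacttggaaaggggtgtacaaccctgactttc
The match begins 63 bases before the start and has 1 mismatch. The repeat reads the same on both strands. Of 32851 promoter windows, 27 (0.0822%) held a match with at most 1 mismatch and 374 (1.14%) one with at most 2. Among the 18 measured FXR-induced genes with a window, Abcb11 was the 1 with at most 2 mismatches, and among the 15 of the 20 leading genes below that had a window, 0 were. A match is a description of letters and no evidence of binding, and its absence from these windows says nothing about FXR.

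Across 13845 genes, 0 passed for the main effect of GW4064 (limma with the pair as a block, smallest Benjamini-Hochberg adjusted p = 0.331), which is a background of 0% up and 0% down. At an unadjusted p under 0.05 there were 274 genes with higher and 355 with lower values, 4.54% of all genes together. Osgin1, an oxidative stress and growth inhibitor gene induced by FXR, had the smallest p of all genes, and Abcb4, the exporter of phosphatidylcholine into bile, ranked 4 by p. Mybl1, a MYB-family transcription factor best known from male meiosis, had the largest difference among the 20 genes named by rule.

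One array stood apart. The submitters' description of it carries the suffix bis, which the labels do not explain. On this array, that of GW4064 alone from experiment 2, olfactory and vomeronasal receptor genes, which hepatocytes are not known to express, had a median log2 signal of 3.25, against 2.95 to 2.98 on the other 7. The pair with that array differed over genes with an SD of 0.381, where the other 3 pairs had SDs of 0.168 to 0.186, and 325 genes (2.35%) differed at least 2-fold in it, against 7 to 15 in the others. With genes split by level into 4 equal groups, its median difference was 0.08 in the dimmest group and -0.16 in the third, whereas the other pairs lay between -0.03 and 0.02 in every group. The part of that array in any single gene's difference was not tested, so the comparison was repeated without its pair, that is, over 3 pairs and 6 arrays, and values from this repeat are given for the main genes. Over all genes, differences in the 3 other pairs correlated at r = 0.076 to 0.113, and with that pair at -0.051 to 0.047, as a description across 13845 genes. Hepatocyte markers were high on every array (median log2 signal 11.12 to 11.79 over 11 genes). The log2 of their summed linear signal was 14.70 to 15.12 on arrays with GW4064 and 14.73 to 15.09 on those without.

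Without the doubted pair, 2 genes rose and 0 fell (limma, adjusted p; 0.0144% and 0% of genes). Before adjustment 945 genes (6.83%) had a p under 0.05, 3.47% up and 3.35% down. The called genes were Mybl1 and Acot5, a peroxisomal acyl-CoA thioesterase gene. Both calls rest on the pairing: without the replicate block 0 genes passed over the same 6 arrays. In this repeat both pairs of experiment 1 share a pool of cells. The SE and adjusted p of the fit therefore do not measure variation between pools. Mybl1 had log2 signals of 7.10 and 6.24 with GW4064 alone (experiments 1 and 2) and 6.44 and 6.60 with glucagon and GW4064, against 5.0 and 5.25 with DMSO and 4.09 and 4.82 with glucagon alone. Every array with GW4064 lay above every array without it, a separation that 79 genes (0.571%) showed upward and 84 (0.607%) downward. Over 4 pairs Mybl1 differed by 1.80 (SE 0.21, 3.49-fold, limma adjusted p = 0.404), with pair differences of 2.10, 0.99, 2.35 and 1.78. Without the doubted pair, whose 0.99 was the smallest, it rose by 2.08 (SE 0.11, 4.21-fold, adjusted p = 0.00887; 0.000118 to 1 over the alternatives for this repeat). Its relative Mybl2 differed by -0.04 (SE 0.08) at a level near 3.04, and Myb did not clear the filter on dim probe sets (highest signal 2.91).

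For Acot5 the signals were 8.11 and 6.52 with GW4064 alone and 7.75 and 7.10 with both agents, against 6.66 and 6.15 with DMSO and 6.44 and 6.08 with glucagon alone. The groups overlapped, by the array of GW4064 alone from experiment 2. The difference was 1.04 over 4 pairs (SE 0.18, limma adjusted p = 0.89) and 1.27 without the doubted pair (SE 0.09, 2.40-fold, adjusted p = 0.0362; 0.000481 to 1 over the alternatives). Acot5 belongs to a cluster of closely similar thioesterase genes, so its probe set may also read relatives. Acot1 and Acot3 were looked for and were not among the genes tested. Of those measured, chosen here after their values were seen, Acot6 differed by 0.25 (SE 0.07), Acot2 by 0.20 (SE 0.09) and Acot4 by -0.20 (SE 0.13) over 4 pairs, and none passed.

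**Figure D1:**
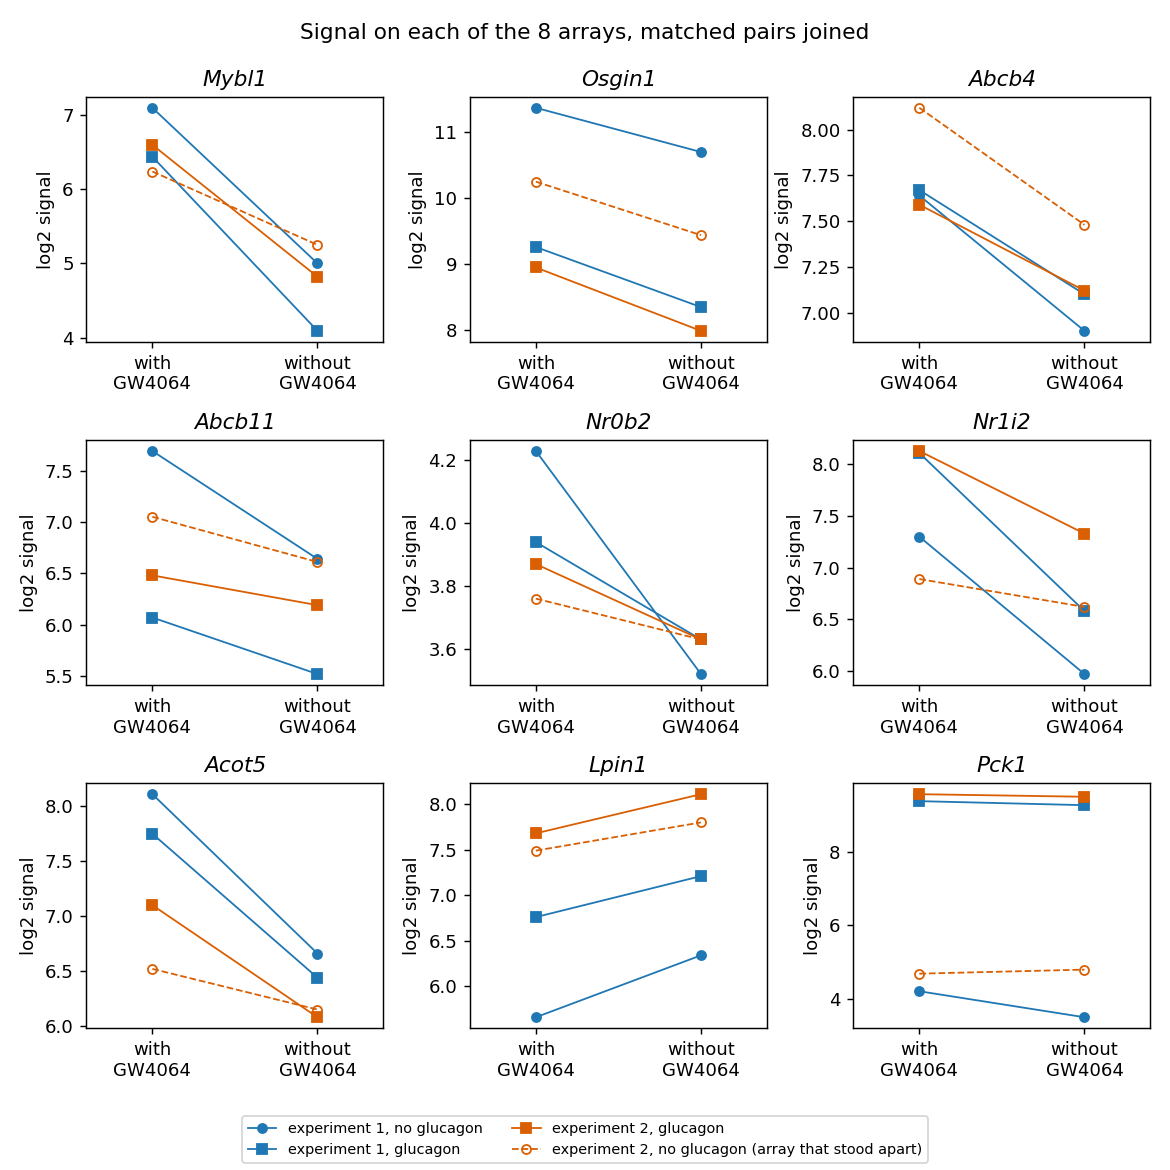
Log2 signal (y axes, separate scale per gene) of 9 genes on the 8 arrays, arrays with GW4064 on the left and without on the right, each line joining 1 matched pair. In the panels of Mybl1, Osgin1, Abcb4, Abcb11, Nr0b2, Nr1i2 and Acot5 all 4 lines are higher with GW4064, in that of Lpin1 all 4 are lower, and Pck1 separates by glucagon instead.

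Known FXR-induced genes had a median difference above that of all genes, with none past the test, and export and regulatory genes held the largest values. The list held 23 genes, of which 19 cleared the filter, and it was drawn up with earlier results of these data known. Its median difference was 0.11, against -0.02 for all genes, and 0.04 without the doubted pair, against 0.00. Of the 19, 0 passed the test (0% of all genes did), 8 were higher in 4 of 4 pairs, as were 5.66% of all genes, and 2 were lower in 4 of 4 pairs, as were 8.05%. At an unadjusted p under 0.05, 6 had higher values (1.98% of all genes) and 1 had a lower value (2.56%). Without the doubted pair these counts were 7 higher (3.47%) and 0 lower (3.35%).

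Of the canalicular transporters, Abcb4 had signals of 7.64 and 8.12 with GW4064 alone and 7.67 and 7.59 with both agents, against 6.90 and 7.48 with DMSO and 7.10 and 7.12 with glucagon alone. No array with GW4064 overlapped one without. The difference of 0.60 (SE 0.07, 1.52-fold, 95% interval 0.43 to 0.78) varied little, from 0.47 to 0.74 over pairs, and was 0.59 without the doubted pair (limma adjusted p = 0.404 and 0.201). Abcb11, whose promoter is printed above, read 7.69 and 7.05 with GW4064 alone and 6.07 and 6.48 with both agents, against 6.64 and 6.61 with DMSO and 5.52 and 6.19 with glucagon alone. The groups overlapped because both arrays with both agents were below the DMSO arrays, although GW4064 was the higher side in 4 of 4 pairs. Its difference was 0.59 (SE 0.13, 1.5-fold, interval 0.28 to 0.90), ranging from 0.29 to 1.05, and 0.64 without the doubted pair. The sterol exporter genes Abcg5 and Abcg8 differed by 0.01 (SE 0.10) and -0.15 (SE 0.10). Slc51a, a basolateral bile acid exporter subunit, did not clear the filter (highest signal 2.91).

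Among regulators, Osgin1 had signals of 11.36 and 10.24 with GW4064 alone and 9.25 and 8.94 with both agents, against 10.69 and 9.43 with DMSO and 8.34 and 7.98 with glucagon alone. Arrays with glucagon were the lower ones on both sides, so the groups overlapped, yet the pair differences of 0.66, 0.81, 0.91 and 0.96 lay close together. Their mean was 0.83 (SE 0.08, 1.78-fold, interval 0.65 to 1.02, limma adjusted p = 0.331; 0.84 and 0.121 without the doubted pair). Nr1i2, the pregnane X receptor that senses drugs and bile acids, read 7.30 and 6.89 with GW4064 alone and 8.11 and 8.13 with both agents, against 5.97 and 6.62 with DMSO and 6.58 and 7.33 with glucagon alone. It differed by 1.34 and 1.53 in experiment 1 and by 0.27 and 0.80 in experiment 2, a mean of 0.98 (SE 0.20, adjusted p = 0.89), or 1.22 without the doubted pair (adjusted p = 0.148).

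Nr0b2, the SHP gene, was dim. Its signals were 4.23 and 3.76 with GW4064 alone and 3.94 and 3.87 with both agents, against 3.52 and 3.63 with DMSO and 3.63 and 3.63 with glucagon alone, where 3.13 to 3.27 marks the lower 40% of probe sets. All 4 arrays with GW4064 lay above all 4 without, at a difference of 0.34 (SE 0.11, interval 0.09 to 0.60). The lowest of them, 3.76, was the doubted array, whose 40th percentile was 3.27, against 3.13 on its DMSO partner. Its pair differed by 0.13, and the part of the higher level of dim probe sets in that was not tested. The mean difference was 0.42 without the doubted pair. It was 0.22 without the pair of experiment 1 and no glucagon, which stood at 0.70. Insig2, a retention factor for sterol sensing, differed by 0.25 (SE 0.09; 0.15 without that same pair, 0.29 without the doubted one), and Sdc1, a heparan sulfate proteoglycan, by 0.11 (SE 0.06), both higher in 4 of 4 pairs. Sqstm1, an autophagy receptor, was also higher in 4 of 4, but with 0.41 in the doubted pair and 0.02 to 0.07 in the others. Pdk4, a kinase that restrains pyruvate oxidation, differed by 0.24 over 4 pairs, and by 0.41 without the doubted pair, in which the value was -0.26, and by 0.07 without the pair of experiment 1 and no glucagon.

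The remaining members did not share that direction. Vldlr, the VLDL receptor gene, was lower in 4 of 4 pairs at -0.19 (SE 0.08), as was Apoc2, the lipoprotein lipase cofactor, at -0.10 (SE 0.06). Ppara differed by -0.33 (SE 0.20), but by -0.07 without the doubted pair, which stood at -1.11. Genes of secreted proteins differed by -0.03 (Fetub), -0.04 (Kng1) and -0.04 (Pltp), and Mafg, a repressor of bile acid synthesis genes, differed by 0.09 (SE 0.08). Fgf21, a fasting hormone, differed by 0.20 (SE 0.15), with -0.35 in experiment 1 with glucagon, and by 0.06 without the pair of experiment 1 and no glucagon. The receptor gene Nr1h4 itself, which is outside the list, was lower in 4 of 4 pairs, with signals of 6.65, 6.10, 5.81 and 5.92 on the arrays with GW4064 and 6.76, 6.48, 5.91 and 6.12 on their partners. That is a difference of -0.20 (SE 0.08, adjusted p = 0.89), or -0.14 without the doubted pair.

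**Figure D2:**
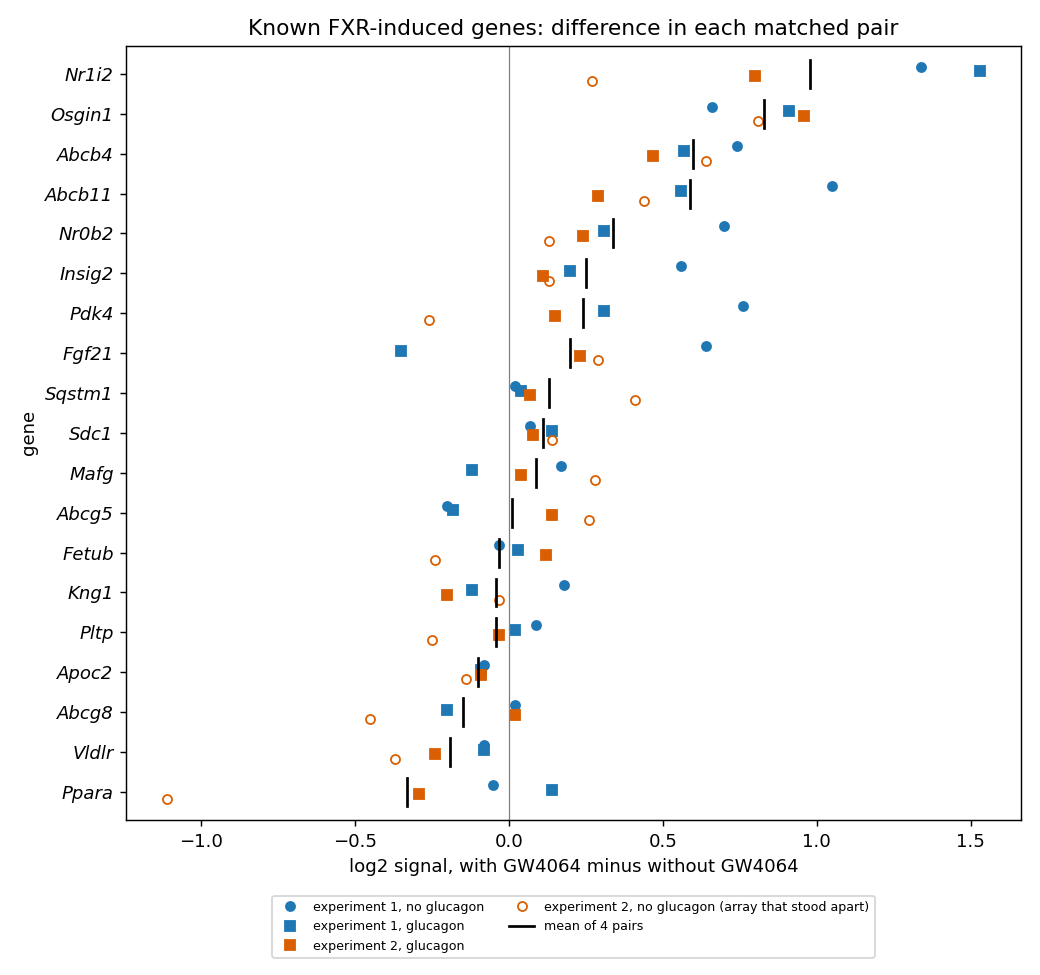
Log2 signal with GW4064 minus without it (x axis) for the 19 measured FXR-induced genes (y axis), with 1 marker per matched pair and a black bar at the mean of 4 pairs. Nr1i2, Osgin1, Abcb4, Abcb11, Nr0b2, Insig2, Sqstm1 and Sdc1 have all 4 markers above 0, and Apoc2 and Vldlr all 4 below it.

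Of 8 genes known to be repressed through FXR or SHP, 6 were measured and 0 passed. Their median was 0.00. Srebf1, the transcription factor of fatty acid synthesis, was lower in 4 of 4 pairs at -0.21 (SE 0.08, limma adjusted p = 0.89; -0.25 without the doubted pair), and Slc10a1, the sodium-dependent bile acid importer, differed by 0.02 (SE 0.10). Cyp8b1, the sterol 12-hydroxylase, differed by 0.00 (SE 0.07) at a mean of 3.32 on both sides, close to the filter level. Cyp7a1, which commits cholesterol to bile acids, did not clear the filter (highest signal 3.38), so its repression could not be assessed here. Bile acid synthesis as a list had 14 measured genes, a median of -0.01 and 0 higher (5.66% of all genes) and 1 lower (8.05%) in 4 of 4 pairs. The lower one was Cyp2c70, which makes muricholic acids in the mouse, at -0.06 (SE 0.07).

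The 4 genes of bile acid conjugation and their relatives had mean differences from -0.06 to -0.49 (median -0.23). Of them 0 were above 0, where 5954 of 13845 genes were, and 0 passed. They varied over pairs, and only Baat was lower in 4 of 4, as were 8.05% of all genes. Baat, which joins bile acids to taurine or glycine, read 4.13 and 4.18 with GW4064 alone and 4.70 and 4.56 with both agents, against 4.18 and 4.35 with DMSO and 5.17 and 5.02 with glucagon alone. Its pair differences were -0.05 and -0.17 without glucagon and -0.47 and -0.46 with it, a mean of -0.29 (SE 0.10, limma adjusted p = 0.89; -0.33 without the doubted pair). For Acnat2, a related acyltransferase gene, they were 0.12 and -0.48 without and -0.89 and -0.72 with glucagon, a mean of -0.49 (SE 0.16). Acnat1 differed by 0.14 and -0.80 without glucagon and by -0.33 and 0.33 with it, and Slc27a5, which activates bile acids to their CoA esters, by 0.20 and -0.01 without and -0.11 and -0.34 with it. Over only the 2 pairs with glucagon, an alternative setting, Acnat2 was lower by 0.80 (limma adjusted p = 0.0312, against 0.89 over 4 pairs). That fit has few residual degrees of freedom, and the number of genes past it is given at the end. The test of whether the effect of GW4064 depended on glucagon gave differences of -0.36 (SE 0.18) for Baat and -0.62 (SE 0.27) for Acnat2, and neither passed (adjusted p = 1 each).

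In that interaction test 0 of 13845 genes passed (smallest limma adjusted p = 1). Before adjustment 332 genes (2.40%) were below 0.05. The number of genes past the adjusted test moved when the array of GW4064 alone from experiment 1 was left out. The doubted array then stood alone for its group, so no count is given. The 5 named genes with the smallest p were Btbd35f2, Lrrc61, Defa34, Zfp869 and Sly. Lrrc61, for example, differed by -0.67 and -1.47 without glucagon and by 0.19 and 0.42 with it, the second being the doubted pair. A second test asked whether the effect differed between experiments, and there too 0 passed (smallest adjusted p = 0.994; 431 genes, 3.11%, at an unadjusted p under 0.05). Snord71, Kank3, Defa40, Calhm5 and Ttc38 led it. The difference between experiments was -0.84 (SE 0.40) for Mybl1 and -0.90 (SE 0.23) for Nr1i2, experiment 2 minus experiment 1.

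None of the measured gluconeogenic genes, the subject of the study, passed for the main effect. Of 18 listed genes 16 were measured, with a median of 0.03, 12 above 0 and 1 higher (5.66% of all genes) and 1 lower (8.05%) in 4 of 4 pairs. Fbp1, the gluconeogenic fructose bisphosphatase, was the higher one: 7.16 and 7.89 with GW4064 alone and 7.78 and 8.16 with both agents, against 6.99 and 7.78 with DMSO and 7.55 and 7.95 with glucagon alone. Its differences lay between 0.11 and 0.24 (mean 0.18, SE 0.06, interval 0.02 to 0.34, limma adjusted p = 0.89), and 0.20 without the doubted pair. Pck1, the cytosolic phosphoenolpyruvate carboxykinase, read 4.20 and 4.68 with GW4064 alone and 9.39 and 9.58 with both agents, against 3.49 and 4.79 with DMSO and 9.28 and 9.51 with glucagon alone. Its level followed glucagon, and its difference of 0.20 (interval -0.13 to 0.53) included the 0.71 of experiment 1 without glucagon, the other pairs lying between -0.10 and 0.11. It was 0.03 without that pair and 0.30 without the doubted one. G6pc, the glucose-6-phosphatase, differed by -0.03 (interval -0.22 to 0.15). Ppargc1a, the coactivator of gluconeogenic genes, differed by -0.05 and -0.21 without glucagon and by 0.38 and 0.55 with it (mean 0.17, interval -0.16 to 0.50), and the test of that dependence gave 0.59 (SE 0.20, adjusted p = 1). Its level without glucagon was near the filter, at 3.08 and 3.90 with GW4064 alone and 3.13 and 4.11 with DMSO. Other panel genes differed by 0.16 for Pklr, -0.11 for Foxa2, -0.08 for Gcgr and 0.02 for Alb, the last at 13.05 and 13.03, near the top of the range.

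The 20 genes with the smallest p among those with 1 sign in 4 of 4 pairs comprised 14 with higher and 6 with lower values, and none passed. In 9 of them the arrays with and without GW4064 did not overlap, 7 upward (0.571% of all genes) and 2 downward (0.607%), a count that choosing by p and sign favours. Besides those described, the higher ones included Ppl, which encodes the cell junction protein periplakin, Il22ra1, the interleukin 22 receptor subunit, and Gcnt2, a glycan-branching enzyme. Ppl read 8.20 and 8.46 with GW4064 alone and 8.35 and 8.53 with both agents, against 7.43 and 7.72 with DMSO and 7.73 and 8.04 with glucagon alone, a difference of 0.66 (SE 0.08, interval 0.48 to 0.84), and 0.63 without the doubted pair. Il22ra1 read 8.05, 7.89, 8.23 and 8.11 with GW4064, in the same order, against 7.34, 7.04, 7.73 and 7.56 without it, a difference of 0.65 (SE 0.08), and 0.59 without the doubted pair. Both genes were bright and separated the groups completely, and their adjusted p of 0.404 is that of ranks 2 and 5 among all genes.

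Smaller positive differences, each in 4 of 4 pairs, were those of Gcnt2 (0.58), Gprc5c, an orphan receptor (0.47), Plk2, a polo-like kinase (0.46), Otud1, a deubiquitinase (0.42), and Glyctk, the glycerate kinase (0.36). Otud1 and Glyctk were the most even, with pair differences of 0.37 to 0.46 and 0.30 to 0.42. Astx5 (0.77) and Zfp455 (0.61) complete the higher protein-coding genes. Mir101c, a microRNA gene, stood at 4.32 and 3.41 with GW4064 alone and 3.95 and 3.53 with both agents, against 2.68 and 2.80 with DMSO and 3.14 and 2.77 with glucagon alone. All 4 values without GW4064 were below the filter level, so it entered only through the arrays with GW4064, and its separation and difference of 0.96 are no support for an effect. The array probes the transcribed locus and not the mature microRNA, which is shown to identify it (RefSeq, GRCm38.p6, chr9:3038680-3038698, minus strand, seed of bases 2 to 8 in capitals).
mmu-miR-101c: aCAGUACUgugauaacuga

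Among lower genes, Lpin1, the phosphatidate phosphatase that also acts with nuclear coactivators, read 5.66 and 7.49 with GW4064 alone and 6.76 and 7.68 with both agents, against 6.34 and 7.80 with DMSO and 7.21 and 8.11 with glucagon alone. The 2 experiments lay far apart, so the groups overlapped, and the pair differences of -0.68, -0.31, -0.45 and -0.44 gave a mean of -0.47 (SE 0.08, interval -0.67 to -0.27), and -0.52 without the doubted pair. Depp1, a FOXO-responsive gene, differed by -0.61 (SE 0.10), and Fezf1, a zinc finger transcription factor, by -0.39 (SE 0.08). Idi2, an isopentenyl diphosphate isomerase, differed by -0.51, the noncoding RNA Platr4 by -0.63 and the bitter taste receptor Tas2r135 by -0.51. These last 3 were dim, with at least 1 array below the filter level each.

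**Figure D3:**
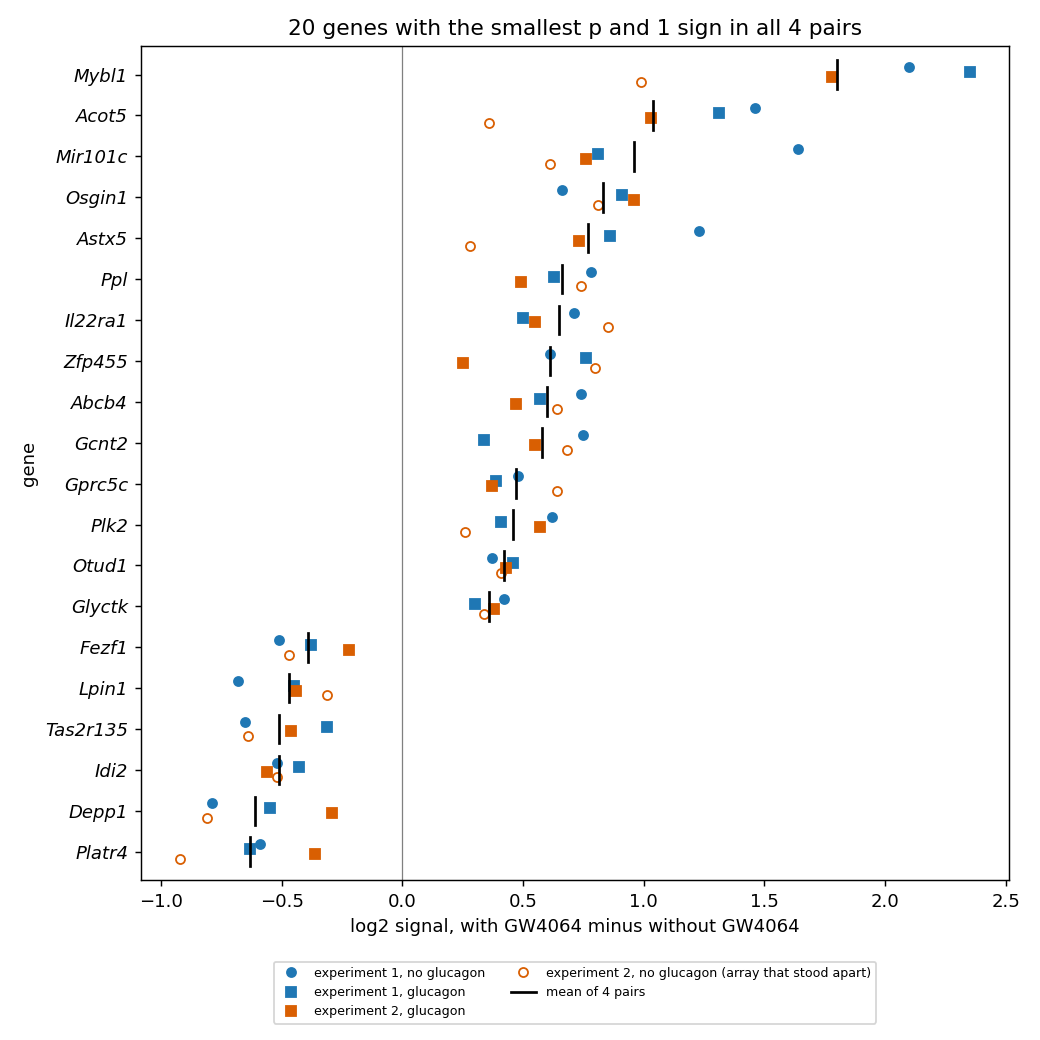
Log2 signal with GW4064 minus without it (x axis) for the 20 genes with the smallest p among those with 1 sign in all 4 pairs (y axis), with 1 marker per matched pair and a black bar at the mean. These genes were selected for agreement in sign; the open circles of the doubted pair lie nearest 0 for Mybl1, Acot5, Mir101c, Astx5, Plk2 and Lpin1.

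Ranking over 3 pairs and reading the fourth gave a measure that the ranking had not used. This reading was added after the values were seen. The other pair of the same experiment, from the same pool of cells, stayed in each ranking. The pair read was therefore not independent of the ranking, and the 20 genes are not replicates. Of 20 genes ranked without the pair of experiment 1 and no glucagon, 16 kept their direction in it. Their median there was 0.65, against a median size of 0.60 in the 3 pairs used for ranking. For the pairs with glucagon, 18 of 20 did in experiment 1 (median 0.37, against 0.62) and 16 of 20 in experiment 2 (0.36, against 0.63). In the doubted pair 14 of 20 did, with a median of 0.29, against 0.58. The differences were thus smaller in the pair left out, except in that of experiment 1 without glucagon. Over all genes of 1 sign in 3 pairs, 52.3%, 53.0%, 54.2% and 49.8% kept it in the fourth, in the same order. The second set of 20, ranked without the doubted pair, shared 12 genes with the first. Besides Nr1i2 it added Klk1b24 (-0.71), Mir344d-2 (-0.57), Tagap1 (-0.58), Alpl, an alkaline phosphatase (0.51), Wfdc3 (0.48), Ildr2 (0.56) and the kinase gene Sgk2 (0.61), as differences over 3 pairs, and none of these passed. Klk1b24, Mir344d-2, Tagap1, Alpl, Ildr2 and Sgk2 had the opposite sign in the doubted pair.

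In each of the 29 lists 0 genes passed over 4 pairs, and over 3 pairs the 1 called was Mybl1. The cyclic AMP response list had a median of 0.06 over 19 genes, with 6 higher (5.66% of all genes) and 2 lower (8.05%) in 4 of 4 pairs. Among them were the immediate-early gene Atf3 (0.24, SE 0.07) and Sik1, a kinase that restrains the cyclic AMP response (0.41, SE 0.14). Sik1 stood at 0.95 in experiment 1 without glucagon and at 0.19 to 0.26 in the others, and its difference was 0.22 without that pair. Fosb, also immediate-early, is one of the 6 but was above the filter level on 3 arrays, all with GW4064, and so entered only through them (means 3.15 with GW4064 and 2.83 without). The NRF2 list, which shares Osgin1, had a median of 0.04 over 11 genes, of which 9 were above 0. Hmox1, the inducible heme oxygenase, stood at 0.16 (SE 0.07). Gclc went the other way, at -0.21 (SE 0.09), and at -0.29 without the doubted pair.

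Xenosensor and drug metabolism genes had a median of -0.01 over 21, although Nr1i2 is among them. Cyp3a25 differed by 0.54 (SE 0.17), unevenly, with 0.07 to 1.10 over pairs and 0.35 without the pair of experiment 2 with glucagon, and Cyp2c38 by -0.30 (SE 0.08). In urea cycle and amino acid breakdown (median -0.01 over 21), Oat, the ornithine aminotransferase, was lower in 4 of 4 pairs at -0.30 (SE 0.07), and Slc25a15, the ornithine carrier, higher in 4 of 4 at 0.18 (SE 0.07). Autophagy genes had a median of -0.08 over 13, with 4 lower (8.05% of all genes) and 1 higher (5.66%) in 4 of 4 pairs. Ulk1, the initiating kinase, differed by -0.26 (SE 0.08) and Bnip3, a mitophagy receptor, by -0.16 (SE 0.06). The list's median was -0.20 in the doubted pair and -0.05 to -0.01 in the others.

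Nuclear receptors and liver transcription factors had a median of -0.09 over 21, with Foxa1 at -0.20 (SE 0.07). Clock genes had one of -0.06 over 15, with Nr1d1, the REV-ERB alpha gene, at -0.22 (SE 0.07). Acute phase and inflammation had one of 0.02 over 19, with the chemokine gene Cxcl10 at 0.49 (SE 0.17), of which the doubted pair gave 1.19 and the others 0.22 to 0.28. Medians were 0.00 for bile acid and organic anion transport, fatty acid and triglyceride synthesis, complement and coagulation, and the cell cycle, -0.02 for fatty acid oxidation, -0.03 for lipoproteins and for the integrated stress and unfolded protein response, -0.04 for glycolysis and glycogen and -0.05 for cholesterol synthesis.

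The median differences of marker lists of other cell types lay between -0.05 and 0.03, with 0 genes past the test in any list. For macrophage markers the log2 of the summed linear signal was 10.24 to 10.92 on arrays with GW4064 and 10.22 to 10.77 on arrays without. It was 8.02 to 8.69 and 7.96 to 8.71 for endothelial markers, and 6.74 to 7.20 and 6.69 to 7.28 for stellate cell markers. For lymphocyte and neutrophil markers it was 5.31 to 5.35 and 5.28 to 5.49. Cholangiocyte markers, of which 3 of 8 were measured, spread more, from 6.07 to 8.02 and from 5.99 to 7.16. Among them was Sox9, the brightest of the 3, which weighs most in such a sum. Sox9 differed by 1.00 in experiment 1 without glucagon and by -0.51 to 0.18 in the other pairs. In cultures measured in bulk, fewer cells of a type and less RNA per cell cannot be told apart.

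**Figure D4:**
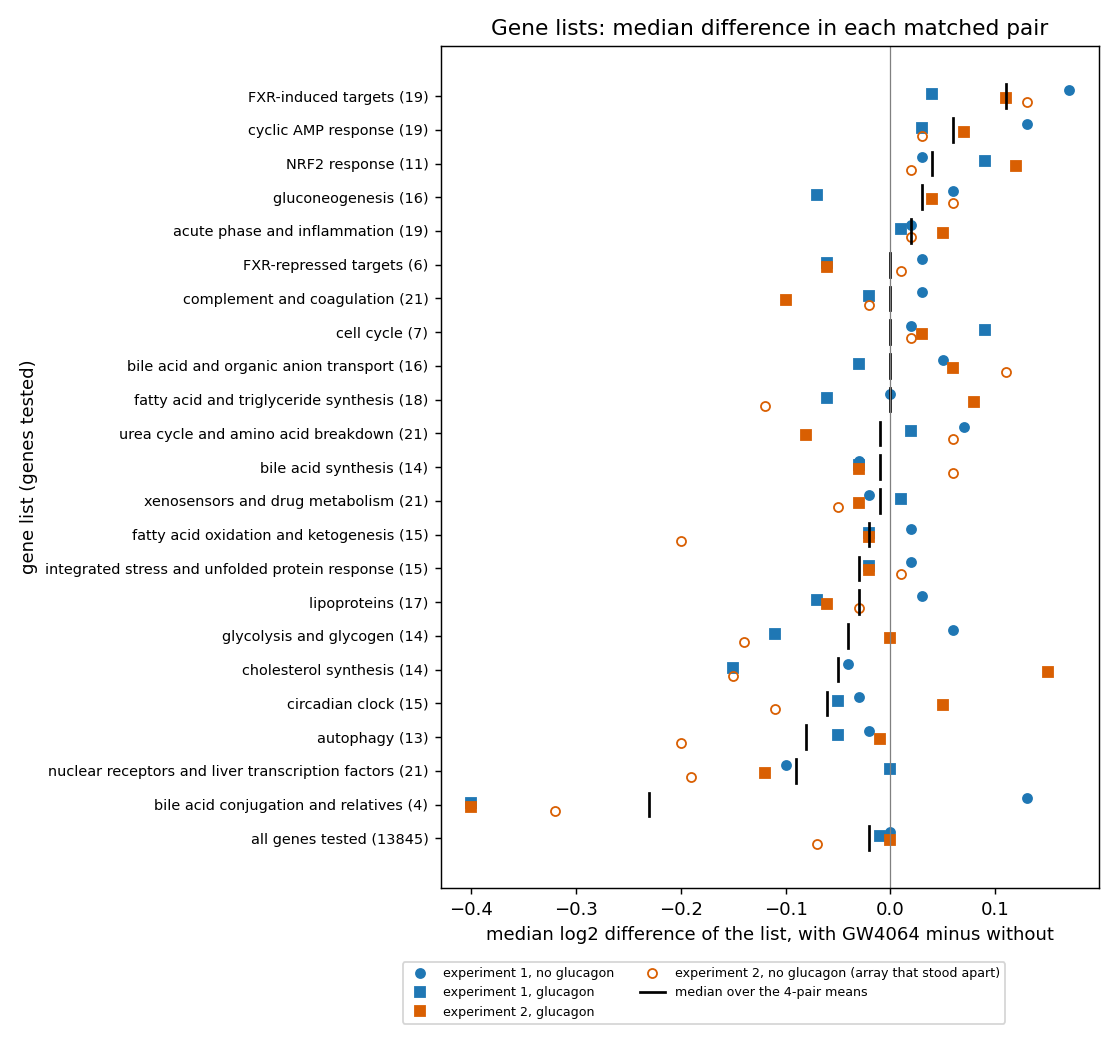
Median log2 difference of each gene list, with GW4064 minus without it (x axis), for 22 lists and all genes (y axis, number of genes tested in brackets), with 1 marker per matched pair and a black bar for the median of the 4-pair means. The MYB list, with 2 measured genes and a median of 0.88, is not drawn. Of those drawn, the FXR-induced list has the highest median over 4 pairs, 0.11, with 0.04 to 0.17 over pairs. The 4 conjugation genes have the lowest, -0.23, with 0.13 in experiment 1 without glucagon. Without the doubted pair the FXR-induced list did not keep that rank. Its median was then 0.04, below cyclic AMP response (0.08), the NRF2 response (0.05) and the cell cycle (0.05).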

How the data were processed

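Biotin-labelled single-stranded DNA of 8 samples was read on Affymetrix MoGene 2.0 ST arrays. The deposited log2 signal values were made by the authors in GeneSpring, per the labels; the software version and its normalization steps are not stated in the labels, and the log2 scale was read from the values' range. Array medians were 3.42 to 3.57. Of 41345 probe sets, 23521 had 1 gene symbol, 1814 several and 16010 none. Probe sets above the 40th percentile on 2 or more arrays were kept, and the brightest per symbol was used, which left 13845 genes.

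The main effect was fitted with limma 3.58.1 in R 4.3.3, with the 4 pairs as a block (3 residual and 3.34 prior degrees of freedom), two-sided, with Benjamini-Hochberg adjustment across the genes tested and a threshold of 0.05, and repeated without the doubted pair. The pair was the block because the comparison was defined as 4 matched pairs. Each experiment used a single pool of cells, and deviations from group means correlated at 0.35 to 0.62 within an experiment. That check took all groups of an experiment, of either glucagon state, so it bears on a block for the experiment and not on the pair. With the experiment alone as a block, the limma adjusted p over 8 arrays was 0.987 for Osgin1 and 0.794 for Mybl1. Both interactions were fitted over 8 arrays. An exact sign-flip test over 4 pairs cannot go below p = 0.125 and was not used. The steps were tested on simulated data. Genes were named by rule: 20 per fit with the smallest p and 1 sign in all pairs, 5 per interaction, all measured FXR targets, up to 4 per other list, and a panel of 18. Predicted and olfactory or vomeronasal receptor genes were not named. The comparison, lists and rule were chosen with earlier results of these data known. Genes outside the rule are Acot2, Acot4, Acot6 and Myb, named after their values were seen, and Acot1 and Acot3, named as not tested.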

Additional observations from a re-analysis of the deposited data

Results flagged for a closer look

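The median log2 signal of olfactory and vomeronasal receptor genes on the array of GW4064 alone from experiment 2 was 3.25, far from the 2.95 to 2.98 of the other 7 arrays. Among 54 genes whose 4 pair differences were examined, Sqstm1 had 1 pair apart: 0.41 in experiment 2 without glucagon, against 0.02 to 0.07 in the others. That pair holds the same array, and with 54 genes examined about 1 in 20 would be set apart by chance. What share of either value comes from the array was not tested.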

How the results depend on the processing

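Over 4 pairs the count of genes past the test stayed at 0 under 10 alternatives: no replicate block (0 genes, smallest adjusted p = 1), the experiment alone as a block, the pair as a random block, quantile normalization, median centring, no filter, a filter at the 60th percentile on 4 arrays, all probe sets, experiment 2 alone, and only the pairs without glucagon. It became 1 with a variance trend (Osgin1), 2 with array weights (Mybl1 and Osgin1), 1 in experiment 1 alone (Mybl1) and 7 with only the pairs with glucagon, and leaving out each pair gave 0 to 2. Without the doubted pair, 2 became 0 with no replicate block for the pairing, 14 with a variance trend (chosen after seeing the data) and 1 to 12 when a further pair was left out; the 12 came without the pair of experiment 1 with glucagon. The glucagon interaction gave 0 to 261 when either array of GW4064 alone was left out, the 261 without that of experiment 1, which leaves the doubted array. The causes were not tested. None of the 20 named genes changed sign in 355 results over these settings. They were chosen for 1 sign in 4 of 4 pairs, so fits that average or leave out the same pair differences could not change it. That count is therefore no measure of robustness. List medians moved beyond the spread of the pairs in 50 results and stayed within it in 442. That of FXR-induced genes was 0.04 without the doubted pair, 0.21 in pairs without glucagon and 0.05 in pairs with it. Signals within the lower 40% of an array limit Cyp8b1, Mir101c, Fosb and Mybl2, among others.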
